A study of Mus musculus with 2 samples.

Results

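Calpains are cysteine proteases that are switched on by calcium, and calpastatin is their inhibitor inside the cell. The 8 genes described here are the catalytic subunits Capn1, Capn2, Capn3, Capn5, Capn7 and Capn15, the small regulatory subunit Capns1, and the inhibitor Cast, chosen by name from the 55536 gene identifiers of the gene tables, of which 22028 are protein-coding genes. All 8 were found under their symbols. Total RNA was sequenced from the gastrocnemius, a fast calf muscle, of 2 female B6CASTF1/J mice, an F1 hybrid of the B6 and Cast strains, aged 8 to 10 months, with 1 library per animal. Animal 1 of the labels is replicate 1 and animal 3 is replicate 2. The labels give no genotype beyond the strain, no treatment and no second group, so the comparisons are between genes within a library and between the 2 animals. The name Cast below always means the calpastatin gene, not the strain.

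In textbook accounts Capn1 and Capn2 make mu-calpain and m-calpain, which nearly every cell holds. Each pairs with the small subunit encoded by Capns1, and calpastatin blocks both by binding them in the presence of calcium, one enzyme molecule per inhibitory repeat. Capn3, also called p94, is the skeletal muscle calpain: it needs no Capns1, cuts itself rapidly, is not blocked by calpastatin, and is held on titin in the sarcomere. Loss of CAPN3 in people causes a limb-girdle muscular dystrophy. Capn5, Capn7 and Capn15 lack the calcium-binding domain through which the classical calpains pair with Capns1.

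The features that set the muscle calpain apart in sequence are shown first, because the transcript counts below turn on them. Capn3 (ENSMUSG00000079110.11, chromosome 2 of mm10, 120456019 to 120504913, plus strand) carries coding exons that are spliced in or out in its annotated transcripts. The main transcript, Capn3-202, has 24 exons and 821 codons. Exon 6 holds most of the first insertion that Capn3 has over Capn1 and Capn2, known as IS1, where the enzyme cuts itself. Exons 15 and 16 belong to the second, IS2, a lysine-rich stretch near the titin-binding site. In the GENCODE M21 transcripts, with lysine codons in capitals, they read, 5′ to 3′:
Capn3 exon 6, chr2:120486333-120486476: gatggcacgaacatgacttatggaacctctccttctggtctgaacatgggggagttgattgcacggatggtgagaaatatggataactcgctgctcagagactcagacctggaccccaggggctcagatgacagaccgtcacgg
Capn3 exon 15, chr2:120498968-120498985: AAAAAGAAAAAAaacAAG
Capn3 exon 16, chr2:120501211-120501324: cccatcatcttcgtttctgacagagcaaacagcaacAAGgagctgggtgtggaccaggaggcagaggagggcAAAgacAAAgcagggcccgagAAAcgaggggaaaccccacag
Exon 6 encodes codons 268 to 315, and none of its 48 codons is a lysine codon. In exon 15, 5 of 6 codons are lysine codons (83.3%), and in exon 16, 4 of 38 (10.5%), against 6.70% over the whole coding sequence. When the translated coding sequences were aligned end to end, 42 of the 48 residues of exon 6 had no partner in Capn1 and 40 had none in Capn2. For exon 16, 38 of 38 residues had no partner in Capn1 and 24 of 38 had none in Capn2. The 6 residues of exon 15 were placed differently in the 2 alignments, with 1 unpaired against Capn1 and 6 against Capn2. Over the aligned residues Capn3 was 53.4% identical to Capn1 and 53.3% to Capn2, and Capn1 and Capn2 were 61.4% identical to each other. The other catalytic members were further away: Capn3 shared 38.8% of aligned residues with Capn5, 31.1% with Capn15 and 27.2% with Capn7.

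Capn3 is annotated with more than one first exon, and the stretch before each main start is shown because the reads below fall almost wholly on one of them. The sequences are from the RefSeq promoter table (GRCm38.p6), plus strand, and end before the first annotated base of either RefSeq or GENCODE. Capitals mark matches to an E-box (CANNTG, the site of MyoD-type factors) and to the MEF2 site, both searched on both strands:
Muscle first exon, chr2:120463343-120463578: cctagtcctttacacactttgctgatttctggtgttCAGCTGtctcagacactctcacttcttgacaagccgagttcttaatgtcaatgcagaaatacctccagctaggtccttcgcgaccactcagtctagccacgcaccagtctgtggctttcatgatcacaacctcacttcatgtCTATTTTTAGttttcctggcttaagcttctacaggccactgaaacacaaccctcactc
Second first exon, chr2:120476659-120476908: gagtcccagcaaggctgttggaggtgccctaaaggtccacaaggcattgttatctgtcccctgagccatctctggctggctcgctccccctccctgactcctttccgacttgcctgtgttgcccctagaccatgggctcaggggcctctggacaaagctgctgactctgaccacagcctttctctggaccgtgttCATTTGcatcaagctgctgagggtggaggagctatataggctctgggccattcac
The muscle promoter held 1 MEF2 match, beginning 72 bases before the RefSeq start, and an E-box beginning 214 bases before it; a further E-box began 3 bases after the start. The second promoter held E-boxes beginning 55 bases before and 27 bases after its start and no MEF2 match. A MEF2 match was present in 3.19% of 32817 RefSeq promoter windows of the same 300 bases, and an E-box in 72.3%. Neither window held the TATA box in its exact spelling TATAAA (in 13.6% of all windows) or the CCAAT box (37.4%). Also absent from both were the M-CAT element (CATTCC, in 14.7%), the GC box (GGGCGG, in 35.6%) and the CArG box (1.63%). Other spellings of the TATA box were not searched, and the stretch before the second first exon holds tatata. These matches describe letters and not bound sites.

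The libraries held 42714567 and 43421652 expected counts in replicates 1 and 2, so that 3 counts, the limit that a count of 0 allows, correspond to 0.0702 and 0.0691 CPM (counts scaled to a fixed library total). TPM is a count divided by effective length and scaled to a fixed total, so it can be compared between genes. Of all TPM, 27.0% in replicate 1 and 33.6% in replicate 2 went to the pair of 7SL RNA genes, which lowers the TPM of other genes more in replicate 2. Ratios within a library are not touched by it. The 7 skeletal muscle fibre markers summed to 79708 and 69725 TPM, and all 7 were above 1 TPM. Each library was quantified in a pair of ways by the authors, called here the first quantification (from transcriptome alignments) and the second (directly from reads). One animal cannot be tested against the other, and a two-sided exact sign-flip permutation test of a difference between genes within libraries cannot go below p = 0.5 with 2 animals, so no test was run. Since the tissue is a mixture, fewer cells of a type and less RNA per cell cannot be told apart.

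Among the catalytic subunits, Capn3 had the highest RNA level, with 65.5 TPM in replicate 1 and 60.1 in replicate 2 (62.8 ± 3.85, SD, n = 2), from 5634 and 5892 counts. It stood 856th among protein-coding genes by mean TPM, above 96.1% of them. Capn1 (ENSMUSG00000024942.17, chromosome 19, 5988545 to 6015897, minus strand) had 46.3 and 37.2 TPM (41.7 ± 6.45). Capn2 (ENSMUSG00000026509.15, chromosome 1, 182467260 to 182517608, minus strand) had 24.8 and 19.4 TPM (22.1 ± 3.78). The muscle calpain was thus higher than either ubiquitous catalytic subunit in both animals, and the levels of the 3 genes did not overlap.

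In a ratio within each library, Capn3 was 1.42 times Capn1 in replicate 1 and 1.62 times in replicate 2, and 2.65 and 3.09 times Capn2. Against Capn1 and Capn2 together the ratio was 0.922 in replicate 1 and 1.06 in replicate 2 (0.992 ± 0.0988). One animal lay below equality and the other above it, so the muscle calpain and the summed ubiquitous subunits were not distinguished. The second quantification gave 0.903 and 1.05 for the same ratio, and coding transcripts alone gave 0.921 and 1.05. Capn1 exceeded Capn2 by 1.87 times in replicate 1 and 1.91 times in replicate 2, and that ratio moved less between the animals than those of Capn3 to Capn1 and Capn2.

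Capn3 made up 43.4% and 46.5% of the TPM summed over the 6 catalytic members (44.9% ± 2.19), out of sums of 151 and 129 TPM. Capn1 made up 29.7% on average, Capn2 15.7%, Capn7 8.47%, Capn15 1.02% and Capn5 0.205%. In the second quantification the Capn3 share was 42.7% and 45.6%.

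**Figure D1:**
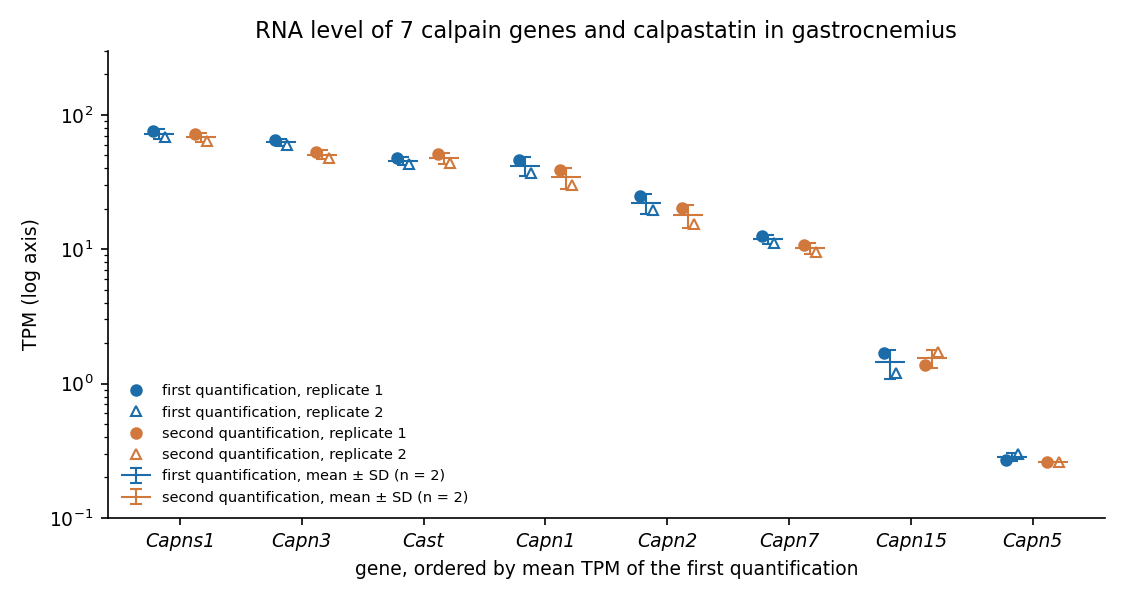
RNA level (TPM, log axis) of the 8 genes, ordered by mean, with the first quantification in blue and the second in orange; filled circles are replicate 1, open triangles replicate 2, and horizontal marks with bars the mean ± SD of both animals. The 6 genes from Capns1 to Capn7 lie between 9.47 and 76.2 TPM, and Capn15 and Capn5 lie below 2 TPM in both quantifications.

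With all transcripts counted, the regulatory subunit was the highest of the 8 genes; with transcripts of class protein_coding alone, at 27.1 and 27.8 TPM, it lay below Capn3, Cast and Capn1 in the first quantification. Capns1 (ENSMUSG00000001794.13, chromosome 7, 30186936 to 30198811, minus strand) had 76.2 and 67.9 TPM (72.1 ± 5.85), from 2583 and 2662 counts over a short transcript. Its lead over Capn3 was 9.30 TPM against summed SDs of 9.70, so the 2 neighbours did not differ beyond their spread, although the order was the same in both animals. That call depends on the setting: the difference was 17.6 TPM against summed SDs of 9.34 in the second quantification and 9.51 against 9.19 with posterior mean TPM. With coding transcripts alone Capns1 was 0.416 and 0.469 times Capn3 in the first quantification, and 0.966 and 1.24 times in the second. Against Capn1 and Capn2 together Capns1 stood at 1.07 in replicate 1 and 1.20 in replicate 2 (1.14 ± 0.0905).

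The RNA of the inhibitor was below the summed RNA of Capn1 and Capn2, by a margin that depended on the quantification. Cast (ENSMUSG00000021585.10, chromosome 13, 74692368 to 74808810, minus strand) had 47.7 and 43.2 TPM (45.5 ± 3.21), from 3377 and 3523 counts. Its ratio to Capn1 plus Capn2 was 0.672 in replicate 1 and 0.764 in replicate 2 (0.718 ± 0.0648), below 1 in both animals. The second quantification gave 0.865 and 0.973 (0.919 ± 0.0768), closer to 1 but again below it in both. Each transcript can carry several inhibitory repeats, so a ratio of RNA levels does not give a ratio of inhibitory sites to enzyme.

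Cast and Capn1 were next to each other in level, differing by 3.74 TPM against summed SDs of 9.66, and were not distinguished. They were in the second quantification, by 13.3 TPM against 10.9, with Cast 1.32 and 1.47 times Capn1. Capn3 exceeded Cast by 17.3 TPM against summed SDs of 7.06, at 1.37 times in replicate 1 and 1.39 times in replicate 2. In the second quantification that ratio shrank to 1.04 and 1.08, and the difference of 2.89 TPM was within the summed SDs of 8.76, so Capn3 and Cast were not distinguished there.

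**Figure D2:**
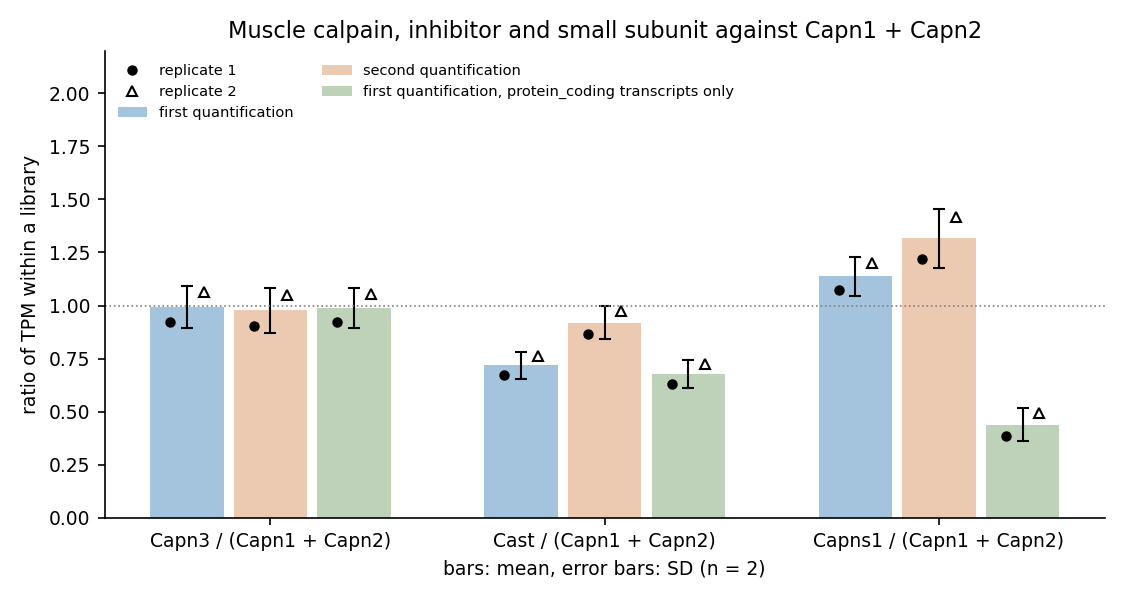
Ratios of TPM within a library for Capn3, Cast and Capns1 over the sum of Capn1 and Capn2; bars are means and error bars SD (n = 2), with replicate 1 as filled circles and replicate 2 as open triangles, and the dotted line marks 1. The Capn3 ratio stays near 1 in each colour, while the Capns1 ratio falls from 1.14 to 0.439 when only transcripts of class protein_coding are summed.

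The 3 members without the classical calcium-binding domain were lower. Capn7 (ENSMUSG00000021893.14, chromosome 14, 31336638 to 31371986, plus strand), a calpain with microtubule-interacting domains that binds the membrane-remodelling ESCRT proteins, had 12.6 and 11.2 TPM (11.9 ± 0.983), and Capn3 was 5.22 and 5.38 times as high. Capn15 (ENSMUSG00000037326.10, chromosome 17, 25958364 to 25985796, minus strand), the mammalian relative of the fly gene small optic lobes, had 1.68 and 1.19 TPM (1.44 ± 0.346). Capn5 (ENSMUSG00000035547.14, chromosome 7, 98121559 to 98178274, minus strand), the relative of the worm sex-determination protease tra-3, was the lowest at 0.27 and 0.30 TPM, from 33 and 43 counts.

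Neighbours from Capn1 down to Capn5 all differed by more than their summed SDs, and with all transcripts counted the order of the 8 genes was the same in both animals and in both quantifications. The Capn5 TPM values lay below the deposited credibility bounds of that same gene, 0.311 to 1.00 in replicate 1 and 0.340 to 0.966 in replicate 2, and its posterior mean TPM averaged 0.625. Its place at the bottom of the order holds with that value too, since Capn15 then averaged 1.79. For the other 7 members the TPM lay within its bounds, such as 63.2 to 67.3 for Capn3 in replicate 1.

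Of 8 further genes of the family, only the catalytic subunit Capn10 reached 1 TPM in both animals, at 1.80 in each. Capn6, which lacks the catalytic cysteine, had 0.39 and 0.25 TPM, and Capn11 had 0.09 and 0.21. Capn9 and Capn12 had 1 or 2 counts in each library. Capn8, Capn13 and Capns2, the second small subunit, had 0 counts in both libraries, which allows up to 0.0702 CPM. The 8 genes together reached 2.31 and 2.29 TPM, against 275 and 240 TPM for the 8 members, and of the small subunits only Capns1 had counts.

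Reads that fit several genes hardly touched the members: the posterior SD of the deposited counts was at most 2.07 counts, for Capn3 in replicate 1. Overlapping genes are a separate matter. Ganc, the neutral alpha-glucosidase gene on the same strand, overlaps the annotated Capn3 gene by 5682 bases and had 20.6 and 15.6 TPM, but it ends 1879 bases before the muscle first exon, and the 2 Capn3 transcripts that start upstream of both first exons were at 0. Sh3bp5 lies antisense to Capn7 over 12107 bases (16.6 and 15.7 TPM), and Erap1 antisense to Cast over 834 bases (13.4 and 11.8 TPM). The kit keeps strand, but the strand setting of the counting is not given in the sources used here, so Capn7 and Cast values are uncertain to that extent. The antisense gene over Capn1, Gm10814, had 0.44 and 0.28 TPM.

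The choice of first exon was clear for Capn3. Transcripts that begin at the muscle first exon held 99.1% of Capn3 TPM in replicate 1 and 98.2% in replicate 2, and the second quantification gave 98.5% and 98.3%. The 5 transcripts that begin at the second first exon, the earliest of them 13339 bases downstream, held 0.656% and 0.899%. Internal fragments held the rest, 0.244% and 0.866%.

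Nearly all Capn3 TPM, over all starts, went to transcripts that hold the insertion exons. Transcripts that hold exon 6 made up 99.2% and 99.1% of Capn3 TPM, and those that hold the lysine-rich exons 15 and 16 made up 98.9% and 98.2%. These shares come almost entirely from Capn3-202, at 64.8 and 59.0 TPM. Capn3-206, which shares the muscle first exon and lacks exons 6, 15 and 16, was at 0.2% in replicate 1 and 0% in replicate 2. Since IsoPct, the deposited share of each transcript in its gene, rests on annotated transcripts, combinations of exons that are not annotated were not examined.

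**Figure D3:**
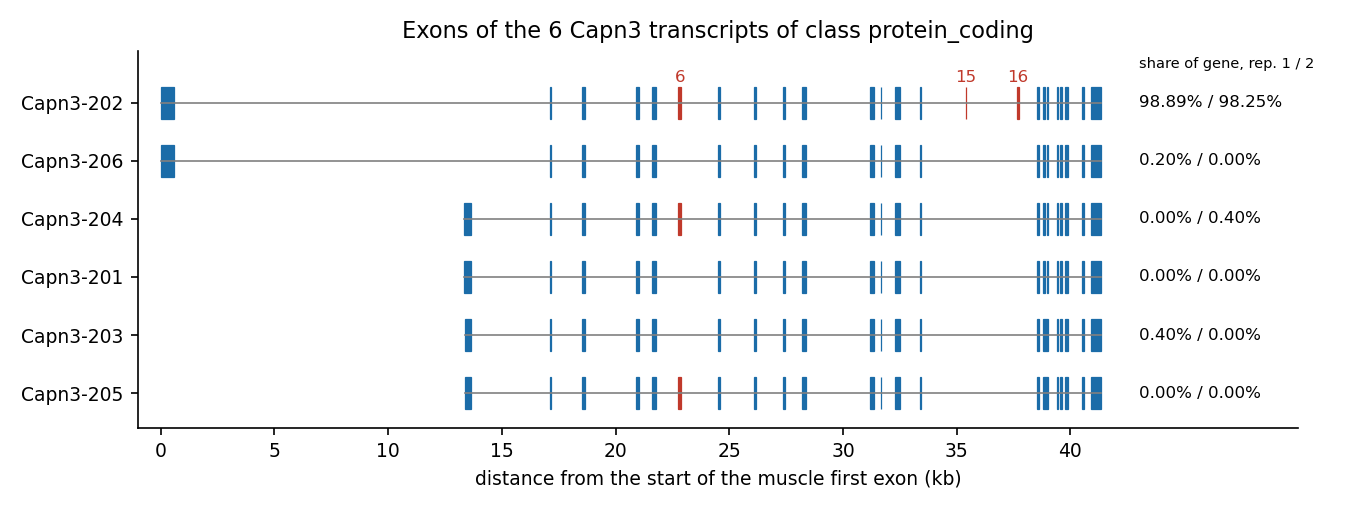
Exons (boxes, to scale, with a minimum drawn width) of the 6 Capn3 transcripts of class protein_coding against distance from the start of the muscle first exon in kb; exons 6, 15 and 16 are red, and the numbers at the right are each transcript's share of Capn3 TPM in replicates 1 and 2. Capn3-202 is the one transcript with all 3 red exons and holds 98.89% and 98.25% of the gene.

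Capn2 and Capn7 also had 1 transcript that held nearly everything in both quantifications. Capn2-201 took 98.8% and 98.0% in the first and 96.1% and 96.8% in the second. Capn7-201 took 98.5% and 98.8%, then 97.8% and 98.9%. Capn5-201 held all counted Capn5 TPM, at only 33 and 43 counts.

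For Capn1 the gene averaged 41.7 TPM in the first quantification and 34.3 in the second, and the first exon given to its RNA was a different one. Capn1-201, which starts at the downstream first exon, held 77.4% and 78.8% of Capn1 TPM in the first quantification and 1.72% and 1.02% in the second. Capn1-202, which starts at the upstream first exon, held 0.35% and 1.5% in the first and 62.8% and 65.8% in the second. Both transcripts have 22 exons, 20 of them identical, and encode the same 713-residue protein, so the choice between them leaves the protein sequence unchanged. Capn1-205, also with the upstream exon, held 13.7% and 10.3%, then 35.4% and 33.2%. Capn1-206 held 7.59% and 6.49% in the first quantification and 0% in the second. The 3′ ends of the models Capn1-205 and Capn1-206 are marked as not found in the annotation. The 2 animals were alike within each quantification, and the first exon of Capn1 RNA was not resolved between them.

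Capns1 split between a coding and a noncoding model. Capns1-208, classed as a retained intron, held 64.1% and 58.9% of Capns1 TPM in the first quantification, and the coding Capns1-203 held 35.3% and 40.4%. In the second quantification Capns1-208 held 24.0% and 2.50%, Capns1-203 held 40.6% and 50.3%, and the coding Capns1-202 held 29.8% and 40.1%. Capns1-205, a further retained-intron model, held 4.73% and 6.87% there. Transcripts of class protein_coding thus added up to 35.6% and 40.9% in the first quantification and 70.8% and 90.3% in the second. Among protein-coding genes of at least 10 TPM with more than 1 transcript, 6.58% had a most abundant transcript outside the protein_coding class in both animals by the first quantification, as did 1 of the 6 members of that level, Capns1.

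The models differ at the 5′ end. Capns1-208 overlaps exons 3 to 11 of the 11 exons of Capns1-203 and lacks exon 2, which opens the reading frame and encodes the glycine-rich tail of the small subunit. The start of Capns1-208 is in the intron before exon 3. The coding Capns1-202 also overlaps only exons 3 to 11 and lacks exon 2. It has 200 codons, against 268 in Capns1-203. The coding part of exon 2 with glycine codons in capitals, and the bases that Capns1-208 holds before the shared exon, both from the minus strand, read:
Capns1-203 exon 2, chr7:30193878-30194086: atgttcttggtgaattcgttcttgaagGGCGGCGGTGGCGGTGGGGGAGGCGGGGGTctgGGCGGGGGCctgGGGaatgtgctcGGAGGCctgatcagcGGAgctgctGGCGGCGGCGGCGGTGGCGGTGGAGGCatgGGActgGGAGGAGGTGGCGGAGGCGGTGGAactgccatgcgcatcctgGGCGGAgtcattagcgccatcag
Capns1-208 start, chr7:30192901-30192972: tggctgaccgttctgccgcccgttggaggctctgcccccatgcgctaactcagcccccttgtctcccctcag
Of the 69 whole codons in the printed part of exon 2, 37 are glycine codons (53.6%), and 68.9% of its bases are G or C, against 55.7% over the Capns1-203 coding sequence. When only coding transcripts were summed, the ratio of Capns1 to Capn1 plus Capn2 was 0.383 in replicate 1 and 0.494 in replicate 2 (0.439 ± 0.0784). With all transcripts it was 1.07 and 1.20. In the second quantification, coding transcripts alone gave 0.875 and 1.29, so the 2 animals lay on different sides of 1. That sum includes Capns1-202, the coding model without exon 2.

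Cast RNA was spread over many transcripts. Calpastatin transcripts differ in their first exon, which changes the amino-terminal region, and in how many inhibitory repeats they encode. A conserved stretch within the repeats (threonine, isoleucine or valine, 2 prolines, any residue, tyrosine, arginine) was found 3 times in the longest coding model, Cast-211, of 788 codons. The looser spelling, with valine allowed, was chosen after the sequence was seen. A more diverged repeat would not be found by it, so all counts of the stretch are minimum numbers of repeats. The 3 matches begin at codons 281, 554 and 691, which are unevenly spaced. The matching codons, minus strand, with the proline pair in capitals, read:
Cast, first stretch, chr13:74738230-74738250: actattCCTCCAgagtatagg
Cast, second stretch, chr13:74724793-74724813: acagtgCCTCCTgattatcga
Cast, last stretch, chr13:74702582-74702602: accatcCCCCCTgaatacagg
The stretch occurs 3 times in Cast-201, Cast-207, Cast-208 and Cast-210, 2 times in Cast-212 and Cast-202, and once in Cast-213.

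Transcripts with first exon 3 of the gene, counted from the upstream end (Cast-207, Cast-208 and Cast-210), held 42.6% and 40.0% of Cast TPM in the first quantification and 20.6% and 19.4% in the second. Those with first exon 1 (Cast-211 and Cast-213) held 24.9% and 30.0%, then 29.8% and 26.9%. The downstream start of the short Cast-212 and Cast-202 held 19.3% and 17.9%, then 30.4% and 26.5%. First exon 2 (Cast-201) held 6.75% and 6.25%, then 2.98% and 7.56%. Each of these 4 starts held RNA in both animals and both quantifications, unlike the nearly single start of Capn3.

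By single transcript, Cast-207 was highest in replicate 1 of the first quantification (24.7%, with 24.1% for Cast-213) and Cast-213 in replicate 2 (27.1%, with 23.4% for Cast-207). In the second quantification Cast-212 led in replicate 1 at 28.7% and Cast-213 in replicate 2 at 24.2%. Cast-208 held 11.7% and 7.36% and Cast-210 6.28% and 9.15% in the first quantification. The retained-intron fragment Cast-206 held 6.06% and 4.72%, then 15.5% and 18.5%. The 3′ end of the Cast-213 model is marked as not found, so its single stretch is a minimum for the RNA it stands for.

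Capn15 had too little RNA for a firm split. Capn15-205, the longest coding model, held 50.3% and 47.9%, and 50.6% and 22.7% in the second quantification. Capn15-208, classed as subject to nonsense-mediated decay, held 29.6% and 23.7% in the first. Capn15-204, also coding, held 0.01% in replicate 1 and 22.3% in replicate 2. Capn15-207, a retained-intron model, held 14.7% and 0% in the first quantification. Capn15-206, of the same class, held 0% and 6.12% there. Capn15-203, classed like Capn15-208, held 5.46% and 0%. In the second quantification of replicate 2 the short Capn15-202 held 41.3%.

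Counting over the members, the most abundant transcript was the same in both animals for 7 of 8 genes in the first quantification, Cast being the exception, and for 5 of the 6 genes of at least 10 TPM. The share over all such genes with more than 1 transcript was 92.9%. Capn2, Capn3, Capn5 and Capn7, 4 of the 8, kept 1 leading transcript across both animals and both quantifications. Of the 6 members at 10 TPM or more, 3 did, where 73.5% of all such genes did.

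**Figure D4:**
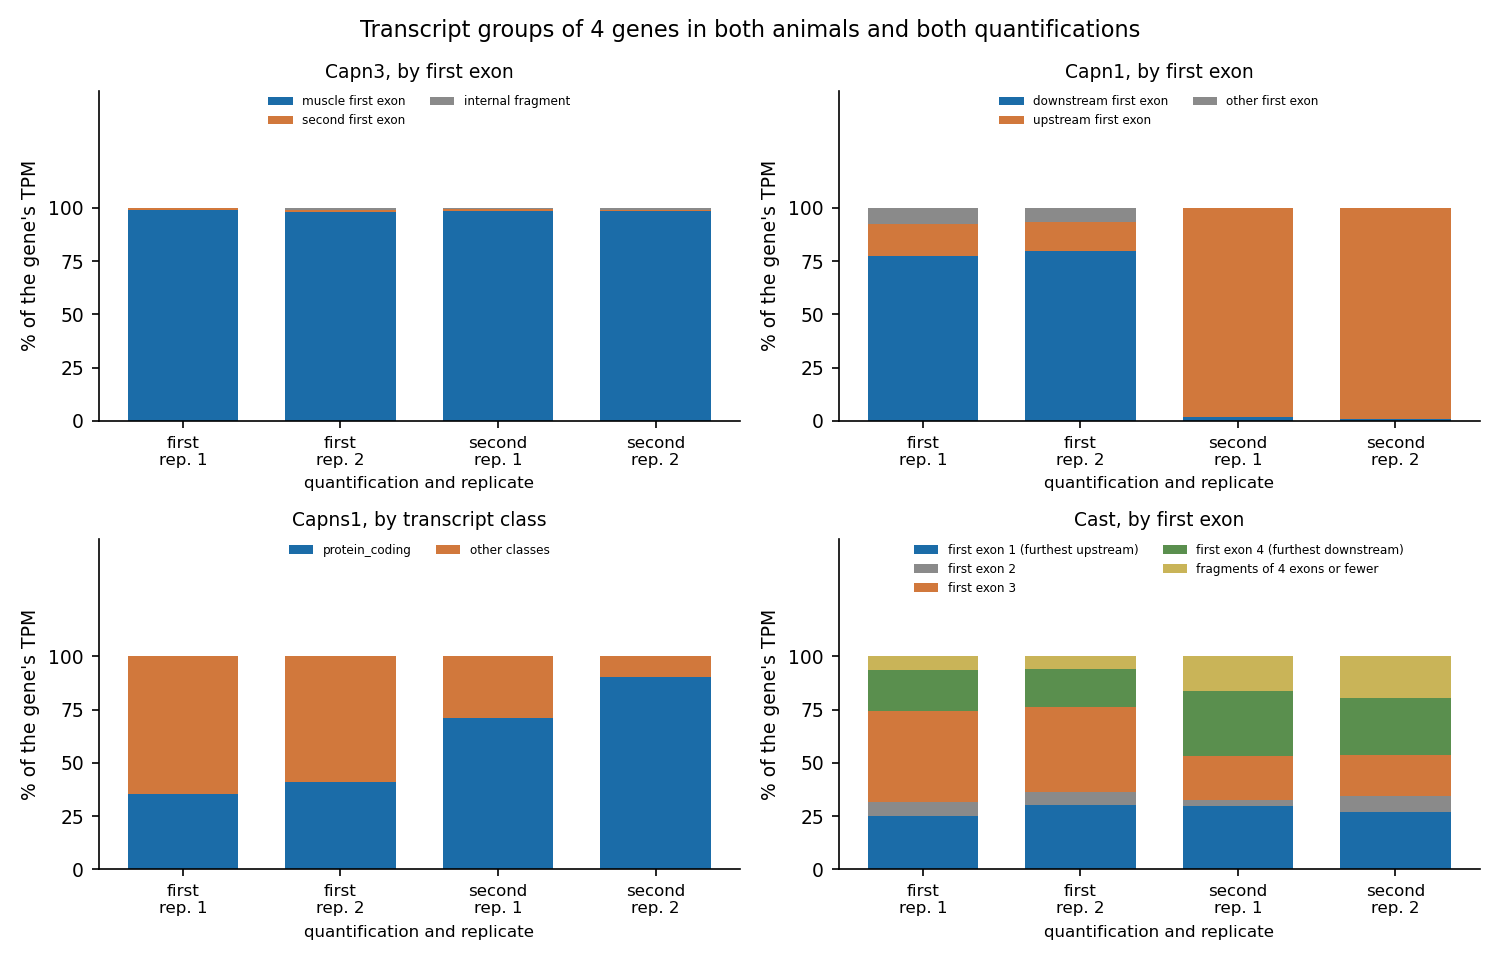
Share of each gene's TPM (%) held by groups of transcripts, for the first and second quantification in replicates 1 and 2: Capn3, Capn1 and Cast by first exon, and Capns1 by transcript class. The Capn3 bars are nearly 1 colour, the Capn1 colours change places between quantifications (77.4% against 1.72% for the downstream exon in replicate 1), and all 5 Cast colours appear in every bar.

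The animals differed little in these genes. With counts scaled by TMM, the log2 ratio of replicate 2 over replicate 1 was 0.04 for Capn3, 0.04 for Cast, 0.02 for Capns1 and 0.0036 for Capn7, all 4 of which turned negative, to between -0.12 and -0.08, when counts were scaled to the ERCC spike-ins. Capn1 (-0.14), Capn2 (-0.19) and Capn15 (-0.40) were lower in replicate 2 under both scalings, at -0.26, -0.31 and -0.52 with spike-ins. The spike-in scaling moved the median of all tested genes by -0.12, from -0.0024. Relative to that median the muscle calpain, the inhibitor and the small subunit lay close together, and Capn1 and Capn2 lay below them.

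None of the 7 members with a mean of at least 50 counts differed by 1.5-fold between animals; 5.56% of the 11127 genes tested did. The absolute log2 ratio of all tested genes had a median of 0.12, and 12.1% of them differed by at least as much as Capn15, 34.4% as Capn2 and 45.0% as Capn1. For Capn3 that share was 80.5%. The exact 95% counting interval ran from -0.21 to -0.07 for Capn1, -0.28 to -0.10 for Capn2, -0.70 to -0.12 for Capn15 and -0.01 to 0.09 for Capn3. These intervals cover counting error only, not differences between animals.

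**Figure D5:**
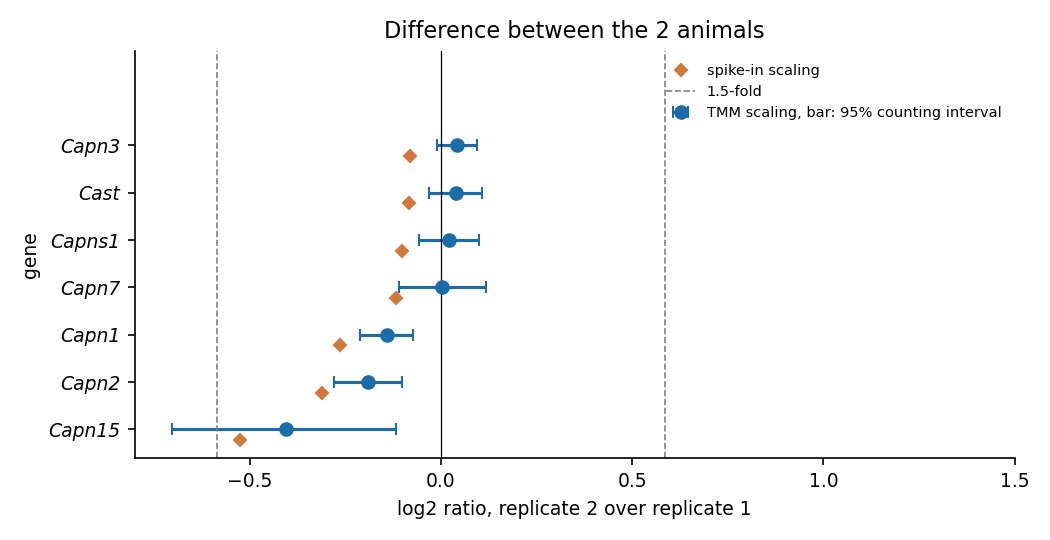
Log2 ratio of replicate 2 over replicate 1 for the 7 members with a mean of at least 50 counts; circles with bars are TMM-scaled ratios with their exact 95% counting intervals, diamonds are the ratios after spike-in scaling, and dashed lines mark 1.5-fold. Capn15, Capn2 and Capn1 lie left of 0 with both scalings, and the other 4 change side.

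Markers of several other cell types were lower in replicate 2, as Capn1, Capn2 and Capn15 were, and their part in that difference was not tested. All 5 fibroblast markers were lower in replicate 2 (sums of 143 and 100 TPM, median log2 ratio -0.29), as were all 5 endothelial markers (41.6 and 31.8 TPM, -0.26) and all 4 smooth muscle and pericyte markers (98.5 and 72.3 TPM, -0.20). The 4 Schwann cell markers were all at least 1.5-fold lower (50.01 and 11.2 TPM, median -1.74). Of all 11127 tested genes, 5628 were lower in replicate 2, and 5.56% passed 1.5-fold either way. The 3 blood markers summed to 151 and 111 TPM (median -0.27 over the 2 tested). Both tested macrophage markers were higher in replicate 2 in scaled counts (median 0.14). In TPM they were not (Csf1r 1.92 and 1.87, Mrc1 1.21 and 1.17). All 4 macrophage markers, tested or not, summed to 3.70 and 3.82 TPM. The 3 satellite cell markers summed to 1.99 and 1.89 TPM and the 3 adipocyte markers to 9.83 and 8.50 TPM. In each of these lists 2 markers were tested, 1 up and 1 down (medians 0.06 and -0.14). No marker was at 0 in both animals. Muscle fibre markers had a median of -0.02 and ran from -0.17 to 0.24, with 5 of 7 lower in replicate 2. Capn3 (0.04) lay in that range, as did Cast (0.04), Capns1 (0.02), Capn7 (0.0036) and Capn1 (-0.14). The median of all tested genes (-0.0024) did too, so the nearness is not particular to Capn3.

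RNA was present for all 12 listed genes whose proteins bind or are cut by calpains, each above 1 TPM in both animals. The share of all genes above 1 TPM is not given here, and protein was not measured. Titin (Ttn), which anchors Capn3, had 4594 and 3685 TPM, 70.1 and 61.4 times Capn3. Aldolase A (Aldoa), a reported binding partner of Capn3, had 14847 and 13117 TPM, and the ryanodine receptor Ryr1 1095 and 910 TPM. Filamin C (Flnc), a Capn3 substrate, had 180 and 166 TPM. Dysferlin (Dysf), which takes part in membrane repair and is cut by calpains, had 46.7 and 35.1 TPM, and Ahnak, its partner, 135 and 110 TPM. Ankrd2, a titin-linked stress sensor, stood at 69.6 and 62.7 TPM, near Capn3 itself, and myospryn (Cmya5) at 730 and 610 TPM.

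Alpha-II spectrin (Sptan1), the classical substrate of Capn1 and Capn2, was the lowest of the 12, at 18.3 and 12.1 TPM, and the only one past 1.5-fold between animals (log2 ratio -0.59). Talin 1 (Tln1) had 24.5 and 21.7 TPM, vinculin (Vcl) 30.9 and 26.3, and desmin (Des) 994 and 904. Of the 12 genes, 9 were lower in replicate 2, as were 5628 of the 11127 genes tested. Their median log2 ratio was -0.06, against -0.0024 over all tested genes.

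Other intracellular proteases give a scale for these levels. Of 13 other proteases and cystatins, 7 reached 1 TPM in both animals, and the list summed to 633 and 548 TPM. The lysosomal proteases Ctsd (210 and 183 TPM) and Ctsb (106 and 98.0 TPM) lay above every calpain gene, Ctsl (77.6 and 59.2 TPM) lay near Capns1 and Capn3, and the secreted inhibitor Cst3 had 227 and 197 TPM. The cathepsin Ctsh, at 2.17 and 2.19 TPM, was past 1.5-fold between animals in its scaled counts (log2 ratio 0.64, higher in replicate 2). Of the 8 genes of this list that were tested, 2 passed that fold, as did 5.56% of all tested genes.

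In level across the 2 libraries, the protein-coding genes nearest to Capn3 outside the members were Mkln1 (65.5 and 60.0 TPM), Rxra (65.2 and 59.6 TPM) and D8Ertd738e (65.2 and 59.4 TPM). The largest log2 difference from Capn3 was 0.0017 for Mkln1, 0.011 for Rxra and 0.017 for D8Ertd738e. With 2 libraries this likeness describes a level alone.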

How the data were processed

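Total RNA from gastrocnemius of 2 animals was sequenced from 300 ng per library with ERCC spike-ins and a strand-keeping kit, per the labels. The authors deposited estimated (expected) counts per gene and transcript, not normalized, with TPM values scaled over all features, and the percent share of each transcript in its gene. The deposited credibility bounds and posterior SDs describe how firmly reads were assigned. The authors' second quantification gave estimated counts and TPM per transcript, summed here to genes. Both used mm10 and GENCODE M21, per the deposited descriptions; the programs behind them are named in no source used here.

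Symbols, classes and coordinates came from GENCODE M21. Ratios were taken from TPM within each library. For differences between animals, expected counts were rounded, scaled by TMM in edgeR 4.0.16 (R 4.3.3) and turned into log2 CPM with a prior count of 2, for genes with a mean of at least 50 counts; a difference was called at 1.5-fold. Neighbours in level were said to differ where both animals gave the same order and the means differed by more than the summed SDs. The 300-base promoter windows came from RefSeq. Coding sequences were translated and aligned with Biopython 1.88. The log2 ratio step was tested on simulated data. Alternatives were the second quantification, posterior mean TPM, coding transcripts only, TPM rescaled over nuclear protein-coding genes, DESeq2 1.42.0 size factors, spike-in scaling, other prior counts and filters, and leaving out each animal.

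All 8 members are named, with each transcript of at least 5% of its gene in either library by the first quantification, genes of 3 lists (other calpain family genes, partners and substrates, other proteases and cystatins; some genes of the last are not reported here) and the 3 genes nearest Capn3 in level. Transcripts Capn1-202, Capns1-202, Capns1-205, Capn3-206 and Capn15-202 were named after their values were seen. The members and lists were chosen with earlier results of these data known. In the labels the tissue samples differ and carry separate animal numbers under a shared donor identifier, so n is 2. The allele of origin of reads was not analysed here.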

Additional observations from a re-analysis of the deposited data

How the results depend on the processing

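No paired analysis was possible because the 2 animals form a single group. Leaving out either animal gave 0.922 to 1.06 for Capn3 over Capn1 plus Capn2, 0.672 to 0.764 for Cast, 1.07 to 1.20 for Capns1, and 43.4% to 46.5% for the Capn3 share of catalytic TPM. The second quantification moved the Cast ratio from 0.718 to 0.919 and the Capns1 ratio from 1.14 to 1.32 by more than the spread between animals, and coding transcripts alone took the Capns1 ratio to 0.439; in the last case the transcripts left out are the change, and the cause of the others was not tested. The Capn3 ratio and the Capn3 share stayed within 1 SD with the second quantification, posterior mean TPM and coding transcripts of either quantification; leaving out 1 of 2 animals cannot move a mean further than that. Coding transcripts of the second quantification, an alternative chosen after seeing the data, gave 1.08 for Capns1 and 0.763 for Cast. Members with the same most abundant transcript fell from 7 to 4 when both quantifications had to give it. The count of members past 1.5-fold was 0 in the main setting and with DESeq2 size factors, spike-in scaling, the other prior count, both filters and the second quantification. Scaling to spike-ins reversed the small log2 ratios of Capn3 (-0.08), Cast (-0.08), Capns1 (-0.10) and Capn7 (-0.12). Of 24 member levels under other quantifications or scalings, 9 stayed within 1 SD of the main value and 15 did not. The rescaling over nuclear protein-coding genes raised all 8, and these are among the 15. That rise was fixed in advance, since protein-coding genes held 52.8% of TPM in replicate 1 and 47.5% in replicate 2. Capn5 and Capn15 rest on few counts, and their transcript shares are limited by depth.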
